A study of Mus musculus with 16 samples.

Results

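Svop, Atp10b, Wfdc3 and Clvs1 are 4 genes of the 45777 listed in the deposited table, and they were chosen on these data because their level was low in lean tumors before therapy and either rose by a large factor after etoposide (ETS) or moved differently in lean and obese hosts. All 4 had a count above 0 in every tumor and are among the 16209 genes that entered the fit. Because the measured levels and the changes after ETS chose them, these values are given as a description, with standard errors and no p-value. P-values appear for other genes, and for the mean transcript lengths and the covariation after ETS of the 4 genes. Both of these measures are computed in part from the values that chose the genes, so their p-values are a description as well.

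The 16 tumors were allografts of B16F10, a pigmented melanoma line of C57BL/6 origin, placed under the skin of mice 6 weeks old. Lean hosts were C57BL/6J mice and obese hosts were leptin-deficient ob/ob mice, as the paper describes them. The sample titles read B6 and ob_ob. Each host had a group before therapy and a group collected after ETS, a topoisomerase II inhibitor given in 5 injections of 20 mg per kg. Each of the 4 groups held 4 tumors. The titles call the first group ctrl, and the paper calls it pre-chemotherapy. If it was collected before treatment began, days of tumor growth go with ETS and cannot be told apart from it. The comparisons called ETS effects below carry this limit. The tumors are numbered 1 to 4 within a group, and all came from the same tumor line, so p-values measure the spread between these tumors. Each library sums melanoma cells and host cells, and in such bulk samples fewer cells of a type and less RNA per cell cannot be told apart.

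The 4 genes encode proteins with no shared pathway. Svop is a transporter-like protein of synaptic vesicles, related to the SV2 proteins, which are found on vesicles of neurons and endocrine cells. Atp10b is a P4-ATPase, or flippase, an enzyme family that moves lipids from one leaflet of a membrane to the other, and it is linked to the export of glucosylceramide from late endosomes and lysosomes. Wfdc3 carries WAP four-disulfide core domains, which are found in several secreted protease inhibitors. Clvs1, or clavesin 1, is a CRAL-TRIO domain protein that binds the endosomal lipid PtdIns(3,5)P2 and associates with clathrin-coated vesicles.

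The genes lie on 4 chromosomes of GRCm38.p6, the assembly that mm10 names. Svop (gene ID 68666) is on the minus strand at chr5:114026913-114091380 and Atp10b (319767) on the plus strand at chr11:43012164-43262285. Wfdc3 (71856) is on the minus strand at chr2:164731226-164745994 and Clvs1 (74438) on the plus strand at chr4:9144745-9451691.

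Total counts ranged from 47199949 to 61655287 per tumor. Over the whole table, 8 melanocyte genes summed to between 11260 and 27990 CPM, the counts scaled to library size, in every tumor, and markers of host cells varied more. Macrophage markers summed to 405 to 1302 CPM in lean tumors before therapy, 49.6 to 420.3 after ETS, 40.2 to 254.6 in obese tumors before therapy and 351.5 to 1037 after ETS. Fibroblast markers summed to 514 to 2204, 88.8 to 588.8, 85.9 to 596.6 and 595.4 to 5665 CPM in the same order. T cell markers summed to 27.9 to 45.9 CPM in lean tumors before therapy and to 1.36 to 4.29 CPM in the tumors of the other groups. The part of these differences in the levels given here was not tested, except where a value below bears on it.

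Svop had few counts before therapy in both hosts. Its counts were 4, 9, 4 and 10 in lean tumors 1 to 4 and 4, 15, 11 and 3 in obese tumors 1 to 4, and after ETS they were 388, 342, 284 and 333 in lean and 386, 299, 216 and 82 in obese tumors. Every tumor after ETS lay above every tumor before therapy. The mean level in lean tumors went from 0.106 ± 0.0495 to 6.17 ± 0.873 CPM (SD, n = 4). For obese tumors the means were 0.155 ± 0.111 before therapy and 4.51 ± 2.55 CPM after ETS (SD, n = 4). These levels correspond to fitted log2 fold changes of 5.83 (SE 0.56) for lean and 4.85 (SE 0.54) for obese hosts, a difference of 0.98 (SE 0.74). The groups of the 2 hosts overlapped both before therapy and after ETS, although obese tumors 3 and 4 after ETS, at 3.44 and 1.44 CPM, lay below all lean tumors after ETS.

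Wfdc3 was the other gene that was low in both hosts before therapy and higher in all tumors after ETS. Lean tumors 1 to 4 held 20, 22, 25 and 48 counts before therapy and 827, 578, 385 and 495 after ETS. Obese tumors held 10, 18, 16 and 13 counts before therapy and 1144, 683, 277 and 95 after ETS. In both hosts the lowest tumor after ETS stood above the highest before therapy, and the hosts overlapped at each time. The lean mean went from 0.455 ± 0.207 to 10.5 ± 3.44 CPM and the obese mean from 0.266 ± 0.0670 to 10.2 ± 8.80 CPM (SD, n = 4), with log2 fold changes of 4.52 (SE 0.63) and 5.25 (SE 0.67). Obese tumors after ETS were the most scattered group, with 20.7, 14.1, 4.41 and 1.66 CPM in tumors 1 to 4.

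Atp10b differed between the hosts before therapy. Lean tumors before therapy held 16, 2, 6 and 12 counts, whereas obese tumors held 100, 242, 49 and 41, so that the lowest obese tumor lay above the highest lean one. After ETS the counts were 377, 254, 227 and 151 in lean and 492, 632, 882 and 250 in obese tumors. All lean tumors after ETS exceeded all lean tumors before therapy, but in obese tumors 3 of the 4 did, since obese tumor 2 before therapy, at 4.83 CPM, stood above obese tumor 4 after ETS, at 4.38 CPM. Mean levels were 0.145 ± 0.104 CPM in lean and 2.11 ± 1.91 CPM in obese tumors before therapy, and 4.63 ± 1.72 and 10.1 ± 4.41 CPM after ETS (n = 4). The log2 fold change after ETS was 4.99 (SE 0.71) in lean and 2.26 (SE 0.58) in obese tumors, and obese tumors exceeded lean tumors before therapy by 3.85 (SE 0.69) on the log2 scale. After ETS this gap was 1.13 (SE 0.56), and the 2 groups overlapped. Without obese tumor 2 before therapy the obese rise was 3.07 and the lean minus obese difference 1.92, in place of 2.73.

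Clvs1 moved in opposite directions in the 2 hosts. Its counts in lean tumors 1 to 4 were 92, 420, 163 and 262 before therapy and 1040, 1142, 920 and 991 after ETS. In obese tumors they were 1590, 1259, 1873 and 1419 before therapy and 471, 524, 1589 and 495 after ETS. Lean tumors before therapy lay below all tumors of the other groups, and obese tumors before therapy lay above all lean tumors after ETS. Obese tumors 1, 2 and 4 after ETS stood at 8.54, 10.8 and 8.67 CPM, but tumor 3 remained at 25.3 CPM, inside the range of obese tumors before therapy. The means were 3.67 ± 2.15 and 18.8 ± 2.81 CPM in lean and 28.6 ± 4.11 and 13.3 ± 8.06 CPM in obese tumors, before and after ETS. The log2 fold change was 2.36 (SE 0.40) in lean and -1.10 (SE 0.38) in obese tumors, and the latter was -1.62 without obese tumor 3 after ETS. Before therapy, obese tumors exceeded lean tumors by 2.96 (SE 0.41). The 6 Schwann cell markers also separated lean tumors before therapy, at a sum of 101.0 to 155.0 CPM, from lean tumors after ETS, at 310.7 to 483.5, and from obese tumors, at 324.0 to 360.0 before therapy and 333.4 to 795.7 after ETS. One of them, Mbp, a myelin protein, rose by 2.04 (adjusted p = 7.32e-05, edgeR) in lean tumors and was higher in obese tumors before therapy by 1.79 (adjusted p = 0.000279). The part of these markers in the levels of Clvs1 was not tested.

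**Figure D1:**
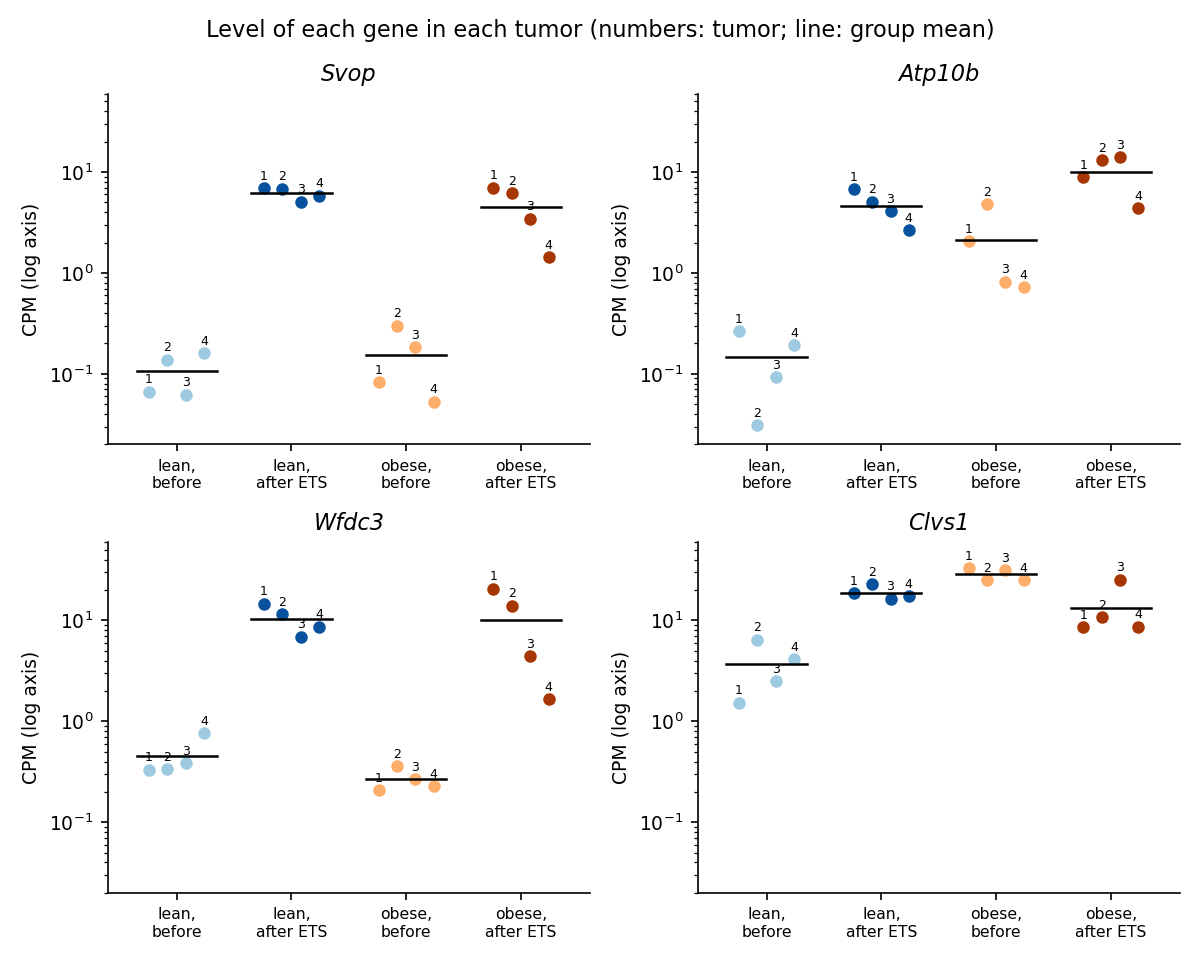
CPM of each gene on a log axis in each of the 16 tumors, with the tumor number above each point and the group mean as a line. Svop and Wfdc3 lie below 1 CPM in every tumor before therapy of either host, as does Atp10b in the lean ones, and Clvs1 is high in obese tumors before therapy at 25.1 to 32.9 CPM.

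The order of the group means differed between the genes. For Svop both groups after ETS stood above both groups before therapy, with the 2 hosts not separated at either time, and the same held for Wfdc3. For Atp10b the order was lean before therapy, obese before therapy, lean after ETS and obese after ETS, and of these neighbours the lowest pair did not overlap and the other pairs did. For Clvs1 it was lean before therapy, obese after ETS, lean after ETS and obese before therapy, where the middle pair overlapped.

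The ranks given next cover only tested genes, which had a count above 0 in every tumor. Genes at 0 in any tumor were not ranked, whatever their rise. The 4 genes were chosen for such changes, so their ranks restate that choice and are a description. Svop and Wfdc3, below 1 CPM in every tumor before therapy, reach a mean of 1 CPM only through the tumors after ETS. Among tested genes with a mean of at least 1 CPM and no overlap between the groups, 2924 were ranked by their lean rise. Svop ranked 1, Atp10b 2 and Wfdc3 3. The genes next in rank were Inka2, at 4.48 (SE 0.29), and Pnpla3, at 4.12 (SE 0.48), the latter coding for a lipid droplet protein. Clvs1 ranked 88. In obese tumors Wfdc3 ranked 2 and Svop 4 of 2362 genes, with Atp2a1, a calcium pump of skeletal muscle, at 6.00 (SE 1.96) and Oas3, an interferon-induced antiviral enzyme, at 4.91 (SE 0.69) beside them. By how far the lean effect exceeded the obese effect, Clvs1 ranked 3 of 13315 genes, after Col9a1 and Pnpla3, and Atp10b ranked 9, next to Fxyd3, while Svop ranked 292 and Wfdc3 11591. As background, the tumors after ETS lay all above those before therapy in 20.8% of tested genes in lean and 16.4% in obese hosts.

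Per transcript length, the genes stood at different levels. In TPM, the deposited measure of abundance per transcript length, lean tumors averaged 0.0659 for Svop, 0.0401 for Atp10b, 0.678 for Wfdc3 and 2.51 for Clvs1 before therapy. After ETS the lean means were 3.12, 1.06, 18.9 and 9.71 TPM, so Wfdc3 was the most abundant of the 4 per length. In obese tumors the means were 0.0863, 0.585, 0.229 and 17.6 TPM before therapy and 2.43, 2.60, 18.9 and 8.0 TPM after ETS, with Clvs1 the highest before and Wfdc3 after.

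After ETS, Svop and Wfdc3 varied together from tumor to tumor. In obese tumors both genes fell in the order tumor 1, 2, 3 and 4, and in lean tumors both ran in the order 1, 2, 4 and 3 in CPM. The association was computed on log2 CPM after the mean of each host group was removed, over the 8 tumors after ETS. It was looked for after the values had been seen. Its p-values are therefore a description and do not measure how often chance gives such a pair. Pearson's r was 0.980 (two-sided exact permutation within the host groups, p = 0.00174, the smallest that 576 arrangements can give, adjusted p = 0.0104 over the 6 pairs of genes). Spearman's rho was 0.976 (exact permutation p = 0.00347, adjusted p = 0.0208), and r was 0.986 without obese tumors 1 and 4. Leaving out each tumor in turn gave 0.977 to 0.991. For the other 5 pairs r ranged from -0.13 for Wfdc3 with Clvs1 to 0.639 for Svop with Atp10b, with exact permutation p-values adjusted to between 0.396 and 0.929. Obese tumor 4 decided 4 of these values. Without it r was -0.77 for Svop with Clvs1, -0.78 for Wfdc3 with Clvs1, -0.07 for Svop with Atp10b and -0.03 for Atp10b with Wfdc3, in place of 0.02, -0.13, 0.639 and 0.575. Without obese tumor 3, r was 0.347 for Svop with Clvs1 and 0.316 for Wfdc3 with Clvs1.

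Sums of cell type markers also varied among the obese tumors after ETS. In obese tumors 1 to 4 after ETS, the melanocyte markers summed to 26650, 24240, 14550 and 11260 CPM, in the same order as Svop and Wfdc3. Tyrp1, Dct and Pmel made up most of this sum, with group means of 6005, 5167 and 4389 CPM. Whether the sum follows the number of melanoma cells was not tested. The fibroblast markers summed to 1807, 915.3, 595.4 and 5665 CPM, highest in tumor 4, and the Schwann cell markers to 360.2, 333.4, 795.7 and 741.5 CPM, high in tumors 3 and 4 where both genes were low. In lean tumors after ETS, the melanocyte markers summed to 27990, 25770, 24230 and 26330 CPM, a narrower range. From obese tumor 1 to obese tumor 4 the sum of melanocyte markers thus went from 26650 to 11260 CPM while Svop went from 7.0 to 1.44 CPM and Wfdc3 from 20.7 to 1.66 CPM, and the part of these markers in this was not tested. Wfdc3 CPM over Svop CPM was 2.96, 2.28, 1.28 and 1.16 in these 4 tumors.

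**Figure D2:**
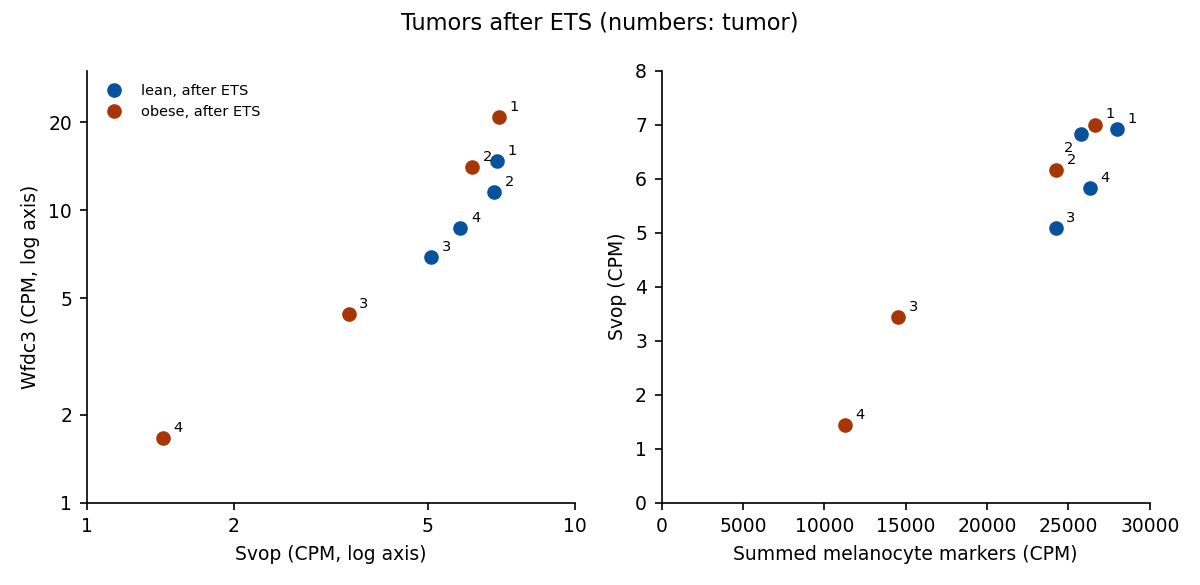
The 8 tumors after ETS, with lean tumors in blue and obese tumors in brown and the tumor number beside each point. The left plot sets Svop against Wfdc3 in CPM on log axes and the right plot sets the summed melanocyte markers in CPM against Svop in CPM. Obese tumors 3 and 4 are the lowest in all 3 measures.

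Over all 16 tumors, the likeness of other genes was measured by Pearson's r of log2 CPM with a prior count of 2. It covered 13314 tested genes with a mean of at least 1 CPM. These tumors share their groups and libraries, so the values are a description. Svop was most like Gm16010 (0.988), Def6 (0.983), Bglap3 (0.976), Ass1 (0.975) and 1700007K13Rik (0.975). Wfdc3 ranked 8 for likeness to Svop. Gm16010 went from 4.57 to 20.7 mean CPM in lean and from 4.37 to 18.2 mean CPM in obese tumors, a smaller factor than that of Svop.

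Wfdc3 was most like Fuca1 (0.978), Pbxip1 (0.973), Svop (0.972), Mylk3 (0.971) and Gm16010 (0.971). Atp10b was most like Tmem88b (0.975), Akr1b8 (0.965), Dennd2c (0.964), Cpt2 (0.958) and Eci2 (0.954). Tmem88b shared its order of groups, with mean levels of 0.710, 3.88, 8.58 and 14.4 CPM in lean and obese tumors before therapy and lean and obese tumors after ETS. Clvs1 was most like Col9a1 (0.948), Ypel1 (0.930), Rnf144a (0.925), Fam184b (0.924) and 2610035D17Rik (0.906). Col9a1, a cartilage collagen chain, averaged 0.553, 8.47, 5.56 and 6.77 CPM in the groups as ordered for Tmem88b, so it too was low in lean tumors before therapy alone. Among the 4 genes themselves, r was 0.972 for Svop with Wfdc3, 0.793 for Svop with Atp10b and 0.712 for Atp10b with Wfdc3, and Clvs1 reached 0.585 with Atp10b, 0.314 with Svop and 0.161 with Wfdc3.

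The deposited counts and FPKM values give, for each tumor, the mean length of the transcripts behind a gene's counts, after calibration on 861 genes with a single annotated transcript and over 100 counts in every tumor, which neither Svop nor Wfdc3 reached before therapy. For Wfdc3 this length was 1218, 2043, 1856 and 1182 bases in lean tumors 1 to 4 before therapy, and 899.4, 904.6, 858.9 and 848.0 bases after ETS. In obese tumors it was 3067, 1494, 3005 and 2933 bases before therapy and 889.8, 880.8, 960.9 and 1134 bases after ETS. No tumor before therapy had a length as short as any tumor of the same host after ETS, and obese tumor 4 after ETS, with 95 counts, was the longest of its group.

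The mean length of Wfdc3 thus went from 1575 ± 440.1 to 877.7 ± 28.4 bases in lean and from 2625 ± 755.7 to 966.3 ± 117.1 bases in obese tumors (n = 4). Each comparison gave a two-sided exact permutation p of 0.0286, the smallest that 4 against 4 tumors can give, and an adjusted p of 0.0762 over the 8 comparisons of the 4 genes and 2 hosts. The values before therapy rest on 10 to 48 counts, and Wfdc3 was chosen for its low level there. A change of transcripts and an uncertain length at low counts cannot be told apart here, so these p-values are a description. Of the GENCODE vM21 transcripts of Wfdc3, the longer of 2 coding transcripts has 911 bases and the other 726, and a noncoding transcript from the outer start of the gene has 1619. The obese values of 2933 to 3067 bases before therapy exceed all 3, and the annotation the authors counted against was not used here.

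Svop had a mean length of 3374 ± 101.5 bases before and 3173 ± 30.6 bases after ETS in lean tumors (exact permutation p = 0.0286, adjusted p = 0.0762) and 3753 ± 768.6 and 3202 ± 68.6 bases in obese tumors (exact permutation p = 0.0571, adjusted p = 0.114), where obese tumor 4 before therapy, at 4894 bases, rested on 3 counts. The same limit holds for Svop, whose lengths before therapy rest on 3 to 15 counts. For Atp10b and Clvs1 the ratio of the lengths before and after ETS was at most 1.05 in each host.

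**Figure D3:**
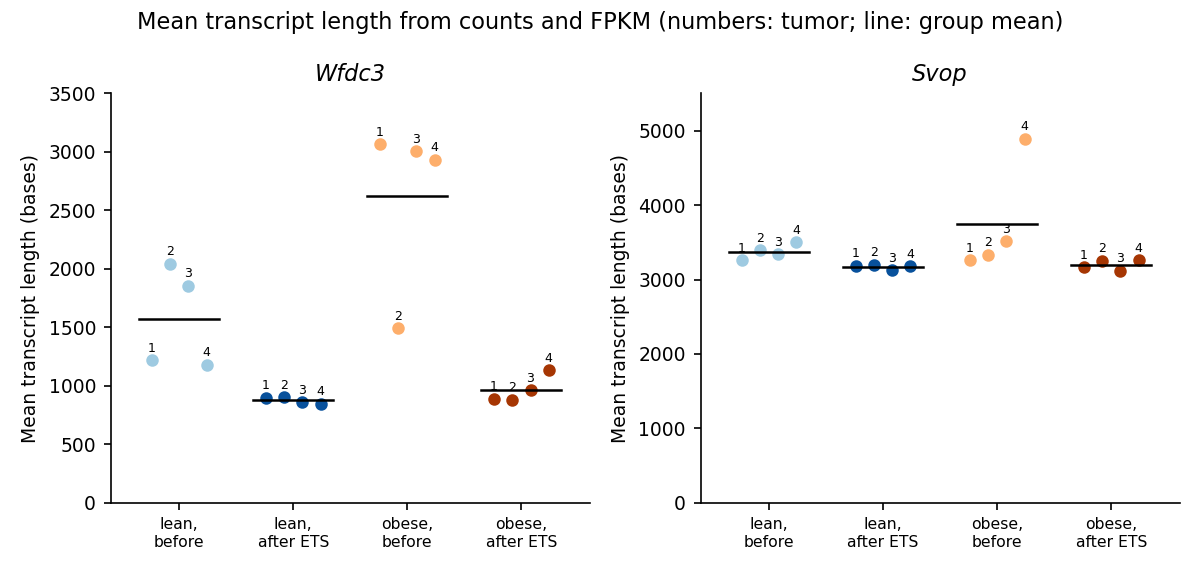
Mean transcript length in bases of Wfdc3 and Svop in each tumor, with the tumor number above each point and the group mean as a line. Wfdc3 lies at 1182 to 3067 bases before therapy and at 848.0 to 1134 bases after ETS.

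The coding transcript of 911 bases starts inside the gene, at position 164743312, and the noncoding one at position 164745931. The RefSeq promoter table for GRCm38.p6 held 1 of the 4 genes, Wfdc3, with a start site at position 164743267, which lies 2727 bases inside the outer end of the gene and near the start of the coding transcript of 911 bases. The 250 bases before this start, chr2:164743268-164743517, are shown as the one promoter of the 4 genes in the table, and use of this start was not measured. They are written 5′ to 3′ on the minus strand with the M-box letters in capitals.

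Wfdc3: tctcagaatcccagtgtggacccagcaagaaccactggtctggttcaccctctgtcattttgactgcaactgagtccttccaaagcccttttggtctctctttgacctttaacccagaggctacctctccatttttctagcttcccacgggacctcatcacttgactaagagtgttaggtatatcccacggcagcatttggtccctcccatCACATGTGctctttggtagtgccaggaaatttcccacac

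The capitals mark the letters CATGTG, the core of the M-box that the melanocyte factor Mitf can bind, which occur once on each strand and overlap. These letters start 37 bases before the RefSeq start site on the strand of the gene. The GENCODE coding transcript of 911 bases starts farther out, at position 164743312, so the letters lie just inside that transcript and not before its start. On either strand they are found in 14.2% of the 32851 promoters of the table, each of 300 bases with 50 after the start. CCAAT occurs once, 8 bases after the start, as it does on some strand in 37.4% of promoters. The letters TATAAA (13.6% of promoters), GGGCGG (35.7%), CACGTG (7.15%), TGANTCA (7.81%) and the p53 half-site (8.36%) were not found on either strand. The whole window of 300 bases held 3 CpG pairs, against a median of 7 over all promoters. These matches describe the letters and not a bound site.

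In the SV2 and SVOP family, both other tested genes rose in lean and in obese hosts. Sv2b rose by 1.97 (SE 0.36, adjusted p = 0.000613, edgeR) in lean and 2.37 (SE 0.38, adjusted p = 0.000278) in obese tumors on the log2 scale. Sv2a rose by 0.54 (SE 0.16, adjusted p = 0.0146) and 0.64 (SE 0.16, adjusted p = 0.00646), and its lean call was lost with TPM values and without lean tumor 2 before therapy or lean tumor 1 after ETS. As background, 21.0% of all tested genes were higher and 22.8% lower after ETS in lean hosts at an adjusted p under 0.05, and in obese hosts 21.2% were higher and 19.0% lower. Each count of rises and falls in the lists below is to be read beside these shares. The lean minus obese difference was -0.40 (SE 0.50) for Sv2b and -0.10 (SE 0.23) for Sv2a, and neither passed the test. Svopl and Sv2c were at 0 in some tumors and reached at most 13 and 10 counts. By TPM, the share of Svop in the family went from 0.611% to 20.04% in lean and from 0.827% to 13.1% in obese tumors, with Sv2a the leading gene in each group.

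The wider list of 26 tested synaptic vesicle and secretion genes gave 10 rises and 5 falls in lean tumors. In obese tumors it gave 5 rises and no fall, with median log2 fold changes of 0.35 and 0.27 beside -0.01 and 0.01 over all tested genes. With log2(TPM + 1) values there were 5 rises and 5 falls in lean and 4 rises in obese tumors. The number in obese tumors was 3 without obese tumor 1, 3 or 4 before therapy. Slc18a1, a vesicular monoamine transporter, rose by 2.20 (SE 0.52, adjusted p = 0.00381, edgeR) in lean and 3.17 (SE 0.56, adjusted p = 0.000594) in obese tumors. Syn2, a synapsin of the vesicle surface, rose by 1.53 (SE 0.34, adjusted p = 0.00268, edgeR) in obese tumors and had 0.52 in lean tumors. The small GTPases Rab3a and Rab3b rose in lean tumors, by 1.66 and 1.90, with obese values of 0.02 and -0.07, and both effects differed between the hosts (adjusted p = 0.000185 and 0.00344, edgeR). Before therapy Rab3a was higher in obese tumors by 1.72 and Unc13a, a vesicle priming gene, by 1.54, the latter call being lost in 13 of 24 alternatives. Syt7, a calcium sensor of vesicle fusion, fell in lean tumors by 1.10 and was lower in obese tumors before therapy, at -2.03. It lost its lean call in 6 of 24 alternatives, 5 of which left out a lean tumor. The difference between hosts was called higher in 2 and lower in 2 of the 26 genes, against 6.35% higher and 10.1% lower over all tested genes. The 9 neuron markers summed to 139.1 to 148.7 CPM in lean tumors before therapy and 208.0 to 257.5 after ETS, and to 161.6 to 297.7 and 204.5 to 405.3 CPM in obese tumors, and their part in the levels of Svop was not tested. Of these markers Snap25 was at 0 in every tumor, Rbfox3 was at 0 in 2 tumors, and 2 passed the filter. Tubb3, a neuronal tubulin, made up most of the sum. Its mean was 132.6 CPM before and 219.3 CPM after ETS in lean tumors, and 219.9 and 277.1 CPM in obese tumors. Tubb3 rose by 0.73 (adjusted p = 0.00876, edgeR) in lean tumors and had 0.33 in obese tumors, and Map2 fell by 0.62 and 0.66.

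Among the P4-ATPases and their CDC50 partners, falls outnumbered rises in lean hosts. Of 13 tested genes other than Atp10b, 2 rose and 7 fell there, 5 rose and 2 fell in obese hosts, and 5 had an effect lower in lean than in obese tumors. With log2(TPM + 1) values there was 1 rise with 9 falls in lean hosts, and 3 rises with 2 falls in obese hosts. Atp10a fell by 2.64 (SE 0.32, adjusted p = 2.6e-05, edgeR) in lean tumors and rose by 1.63 (SE 0.31, adjusted p = 0.001) in obese tumors. Atp8b4 fell by 3.18 (SE 0.42, adjusted p = 5.38e-05, edgeR) and rose by 1.55 (SE 0.41, adjusted p = 0.00876), and Atp8b1 fell by 1.49 and rose by 1.63 in the same hosts. Both Atp10a and Atp8b4 were higher in lean than in obese tumors before therapy, by -2.38 and -3.89 as obese minus lean, the opposite of Atp10b.

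Atp9a, a flippase of recycling endosomes, rose in both hosts, by 0.996 (SE 0.22, adjusted p = 0.0026, edgeR) and 1.15 (SE 0.22, adjusted p = 0.00123), and was the leading family gene by TPM except in lean tumors before therapy. Atp8a1 fell by 1.51 in lean tumors and stood at -0.13 in obese tumors. Atp10d and Atp11a fell in lean tumors, by 1.10 and 0.42, calls that 7 and 3 alternatives did not keep, Atp9b rose by 0.23 in lean tumors but stood at -0.17 with TPM values, and Atp11b fell by 0.43 in obese tumors. Atp8a2, Atp8b2 and Tmem30a, the common CDC50 subunit, did not pass the test in either host. The share of Atp10b in the TPM of the family went from 0.0172% to 0.491% in lean and from 0.283% to 1.04% in obese tumors, the latter group being the only one above 1%.

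The macrophage markers moved in the same directions as Atp10a, Atp8b4 and Atp8b1, and their part in those changes was not tested. Of 8 tested macrophage genes, 6 fell in lean and 6 rose in obese tumors, while Atp10b was higher after ETS in both hosts. Before therapy 7 of the 8 were lower in obese tumors, where Atp10b was higher. Of all tested genes, 13.5% were higher and 12.9% lower in the obese group at that time.

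All 23 genes of glucosylceramide and glycosphingolipid turnover, the lipid class linked to Atp10b, were tested. Rises and falls were equal in lean hosts, at 5 each, whereas obese hosts gave 13 rises and 1 fall, with medians of 0.12 and 0.52. With log2(TPM + 1) values the lean counts were 1 rise and 10 falls and the obese counts 11 rises and 1 fall. Gba2, a nonlysosomal glucosylceramidase, fell in both hosts, by 0.62 and 0.48. Glb1, the lysosomal beta-galactosidase, rose by 0.62 in lean and 0.97 in obese tumors, and its lean call was lost with TPM values. Ugcg, which makes glucosylceramide, fell by 0.82 (adjusted p = 0.00635, edgeR) in lean tumors and stood at -0.37 in obese tumors, and B4galt5, a lactosylceramide synthase, fell by 0.88 (adjusted p = 0.00684, edgeR) and stood at -0.30. B4galnt1, a ganglioside synthase, fell by 2.01 in lean and rose by 1.59 in obese tumors, and Psap, the saposin precursor, fell by 0.42 and rose by 1.05, and both effects differed between hosts (adjusted p = 0.000458 and 0.000121, edgeR). Before therapy none of the genes was higher and 9 were lower in obese tumors. The number with a difference between hosts was 5 genes, all lower in lean, and 3 without 1 of 6 tumors in turn (lean tumor 2 or 4 before therapy, lean tumor 3 or 4 after ETS, or obese tumor 3 or 4 before therapy). It was 3 with no genes excluded and 9 with log2(TPM + 1) values.

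The 9 tested genes with WAP or Kunitz domains other than Wfdc3 gave 3 rises and 1 fall in lean and 6 rises in obese tumors. With log2(TPM + 1) values these were 1 rise and 3 falls in lean and 5 rises in obese tumors. Wfikkn2 rose by 1.205 (SE 0.20, adjusted p = 0.000349, edgeR) and 0.81 (SE 0.20, adjusted p = 0.00539) in lean and obese tumors. Slpi, the secretory leukocyte protease inhibitor, rose by 1.59 (SE 0.43, adjusted p = 0.00817, edgeR) in lean tumors and had 0.66 in obese tumors, and before therapy it was higher in obese tumors by 2.83. Tfpi, an inhibitor of the coagulation pathway, rose by 0.39 and 0.31, but in lean tumors it stood at -0.03 with TPM values. Wfdc17 rose by 3.24 (SE 0.88, adjusted p = 0.00946, edgeR) in obese tumors and had -2.06 in lean tumors, and Spint2 fell by 1.30 in lean and rose by 1.47 in obese tumors. Spint1 and Wfikkn1 rose in obese tumors, by 1.08 and 1.57, the latter call being lost in 6 of 24 alternatives. Wfdc1 and Tfpi2 did not pass the test for ETS in either host. A further 20 genes of the list were at 0 in at least 1 tumor, and 9 of them, among them Wfdc2, were at 0 in every tumor. By TPM, the share of Wfdc3 in the list went from 0.479% to 14.8% in lean and from 0.197% to 9.10% in obese tumors.

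Of the CRAL-TRIO domain genes, the relative with the largest lean rise was Rlbp1. This retinaldehyde-binding protein rose by 2.13 (SE 0.36, adjusted p = 0.000393, edgeR) in lean tumors and had 0.56 (SE 0.35, adjusted p = 0.218) in obese tumors, a difference of 1.57 (SE 0.50, adjusted p = 0.0434) that 14 of 23 alternatives did not call. Sec14l2 rose by 1.35 (SE 0.22, adjusted p = 0.000286, edgeR) in lean tumors and stood 1.204 above lean tumors in the obese group before therapy (SE 0.22, adjusted p = 0.00106). In all, the 11 tested relatives gave 3 rises and 5 falls in lean hosts and 1 rise and 2 falls in obese hosts, and the obese number was 5 without obese tumor 4 after ETS. With log2(TPM + 1) values there were 2 rises and 8 falls in lean hosts and 3 falls in obese hosts. Gdap2, the remaining lean rise, at 0.33, stood at -0.04 with TPM values. Ttpa, the alpha-tocopherol transfer protein, fell by 0.76 and 0.91 and Bnip2 by 0.18 and 0.21 in lean and obese tumors, Mospd2, Prune2 and Nf1 fell in lean tumors by 0.57, 0.84 and 0.46, and Ttpal rose in obese tumors by 0.31. Sec14l1 and Ptpn9 did not pass the test in either host, and Clvs2, the closest relative of Clvs1, reached 8 counts at most and was at 0 in 14 tumors. The share of Clvs1 in the TPM of the family went from 1.27% to 5.91% in lean and from 8.44% to 4.16% in obese tumors.

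The 33 genes of clathrin, AP-1 and PtdIns(3,5)P2 handling, the machinery with which clavesins associate, gave 6 rises and 8 falls in lean hosts. In obese hosts they gave 5 rises and 3 falls, with medians of 0.03 and 0.02. With log2(TPM + 1) values the split was 2 rises and 16 falls in lean hosts and 3 rises and 6 falls in obese hosts. Ap1m2, an AP-1 subunit, rose by 1.51 (adjusted p = 0.0189, edgeR) in lean and 1.27 (adjusted p = 0.0485) in obese tumors, the latter lost in 17 of 24 alternatives. Snx1, a sorting nexin, rose by 0.89 (adjusted p = 0.00131, edgeR) in lean tumors, and Pikfyve, the kinase that makes PtdIns(3,5)P2, fell by 1.15 (adjusted p = 0.00127), as did Gga3, a clathrin adaptor, by 0.59 (adjusted p = 0.00544). In obese tumors Igf2r rose by 0.68 (adjusted p = 0.0125, edgeR) while Ap1s3 fell by 0.76 (adjusted p = 0.0034) and Vps35, a retromer subunit, by 0.37 (adjusted p = 0.00187). Before therapy Mtm1 and Stam were higher in obese tumors, by 0.65 and 0.48, and Pikfyve and its scaffold Vac14 were lower, at -0.68 and -0.34 as obese minus lean. These calls of Mtm1, Stam, Pikfyve and Vac14 were lost in 7, 7, 11 and 2 of 24 alternatives. The difference between hosts passed for 1 gene, Mtmr2, at 0.45 (adjusted p = 0.0439, edgeR), a call lost in 15 of 23 alternatives, and this number ranged from 0 to 3 when each tumor was left out and from 0 to 5 under the settings that kept all tumors.

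**Figure D4:**
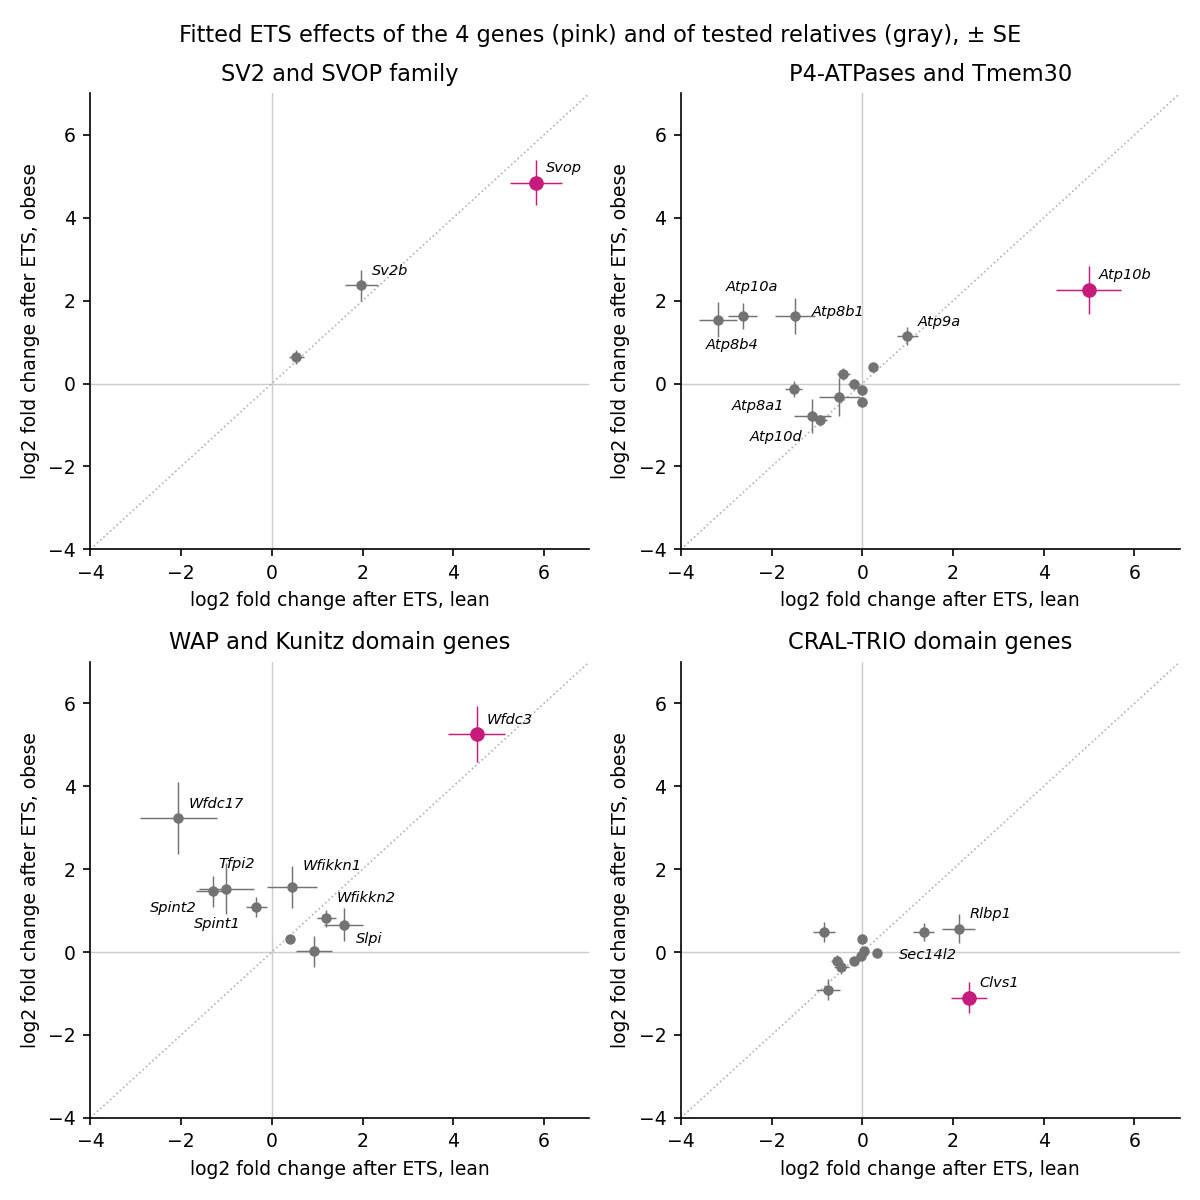
Fitted log2 fold change after ETS in lean tumors (horizontal) against obese tumors (vertical) with standard errors, for the 4 genes in pink and their tested relatives in gray, one family a plot. The dotted line marks equal effects. Atp10b lies at 4.99 and 2.26 while Atp10a and Atp8b4 lie at -2.64 and 1.63 and at -3.18 and 1.55, and Clvs1 lies at 2.36 and -1.10.

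Among 17 neighbouring protein-coding genes 11 were tested, with absolute log2 fold changes after ETS of at most 1.57. They gave 4 rises and 1 fall in lean hosts and 1 fall in obese hosts, and the effect of 1 was higher in lean than in obese hosts. Over all tested genes, 21.0% rose and 22.8% fell in lean hosts, and 21.2% rose and 19.0% fell in obese hosts. The difference was called higher in 6.35%. With 11 genes, the counts are a description. Dnttip1, whose annotated start lies 21 bases from the outer end of Wfdc3, had log2 fold changes of 0.18 (SE 0.09, adjusted p = 0.134, edgeR) and 0.14 (SE 0.09, adjusted p = 0.25) in lean and obese tumors. Ube2c, on the same side of Wfdc3, fell by 0.73 (adjusted p = 0.000374, edgeR) in obese tumors. Usp30, on the opposite strand and partly over Svop in GENCODE, rose by 0.28 (SE 0.08, adjusted p = 0.00811, edgeR) in lean tumors, and stood at -0.11 with TPM values. The RefSeq noncoding gene Gm16108, inside Svop, was listed at 0 in every tumor.

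Pttg1, on the far side of Atp10b, rose by 0.55 (adjusted p = 0.00134, edgeR) in lean tumors, a call lost with TPM values at 0.215, and had 0.00 in obese tumors, a difference of 0.54 (SE 0.16, adjusted p = 0.0272) that was lost in 8 of 23 alternatives. Chd7, before Clvs1, fell by 1.57 (SE 0.41, adjusted p = 0.00637, edgeR) in lean tumors, where Clvs1 was higher. Rab2a rose by 0.30 in lean tumors and had -0.04 with TPM values, and 2610301B20Rik, beyond Clvs1, rose by 0.39 in lean tumors and had 0.015 with TPM values, where its call was lost. Asph, whose end overlaps that of Clvs1 on the opposite strand, averaged 82.3 to 126.3 CPM over the groups and before therapy stood higher in the obese group by 0.62 (SE 0.17, adjusted p = 0.0134, edgeR), a call lost with TPM values and without obese tumor 4 before therapy. Libraries were stranded, but whether the counting used strand is not stated, so reads of Asph and Clvs1 in their shared stretch, like those of Usp30 and Svop, could be shared or split. The antisense gene Gm11816 inside Clvs1 reached 19 counts at most.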

How the data were processed

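RNA of 16 B16F10 tumors was sequenced in poly(A)-selected, stranded libraries. According to the paper's methods and the submitters' processing notes, reads were base-called with bcl2fastq 2.20.0, trimmed with Trimmomatic, aligned to mm10 with HISAT2 2.1.0 and quantified with StringTie 2.1.3b. The authors deposited whole-number counts per gene, not normalized, together with FPKM and TPM values that they computed in the same step.

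As in the study, a gene needed a count above 0 in all tumors, which removed 29568 genes. Counts were scaled by TMM and fitted with edgeR's quasi-likelihood test (edgeR 4.0.16, R 4.3.3) with a mean for each of the 4 groups, and p-values were adjusted by the Benjamini-Hochberg method over all 16209 genes. The common biological coefficient of variation was 0.233. CPM values use the TMM-scaled library sizes. Tested on simulated data for the lean comparison (15960 genes), the fit recovered 160 of 197 changed genes with 6 false calls. The simulation gave every gene the same coefficient of variation and changed far fewer genes than were called in the tumors. It therefore checks that the fit runs and does not give its error rate on these data. Mean transcript length is the count divided by FPKM and by the count total, calibrated on single-transcript genes, whose factors lay between 1.11 and 1.15. Gene IDs matched the GRCm38.p6 table for 45679 genes.

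The 4 genes and the gene lists were chosen with earlier results of these data known. The named genes are the 4 genes, the tested genes of their families, up to 2 of the largest called changes per list, comparison and direction, the 2 nearest protein-coding genes on each side, the 5 genes most alike, and those next in rank. Ugcg, Snap25, Tyrp1, Dct, Pmel, Gm16108, Gm11816 and the genes at 0 in some tumors were named after their values were seen. Alternatives were DESeq2's size factors, no exclusion of genes with a count of 0, filterByExpr, DESeq2 1.42.0, edgeR's exact test on counts with 1 added, limma 3.58.1 on log2(TPM + 1), the replicate number as a block, and each tumor left out. Added after the data had been seen were limma on log2(TPM + 0.05) and the omission of each tumor from the covariation and the lengths. No pair of tumors of a group agreed within sampling noise. Some genes of the lists are counted but not reported by name here. Promoters come from RefSeq.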

Additional observations from a re-analysis of the deposited data

Results flagged for a closer look

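Among 32 groups of 4 tumors examined for a single distant tumor, 5 held one by Dixon's test, and chance gives about 1 in 20. Wfdc3 in lean tumor 4 before therapy stood at 0.763 CPM, above 0.332 to 0.386 CPM in the other 3. Clvs1 in obese tumor 3 after ETS stood at 25.3 CPM, above 8.54 to 10.8 CPM. Svop had a mean transcript length of 4894 bases in obese tumor 4 before therapy, on 3 counts, and Wfdc3 had 1494 bases in obese tumor 2 before therapy, below 2933 to 3067 bases in the others. Clvs1 had 3099.6 bases in obese tumor 1 after ETS, within a range of under 1 base.

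The effect of ETS differed between lean and obese tumors for 11 relatives and neighbours at an adjusted p under 0.05 (edgeR, interaction term, lean minus obese on the log2 scale). Of the flippases, the difference was -1.38 for Atp8a1, -3.12 for Atp8b1, -4.73 for Atp8b4, -4.27 for Atp10a and -0.65 for Atp11a. Of the protease inhibitors, it was -5.30 for Wfdc17, -1.43 for Spint1 and -2.77 for Spint2. It was 1.57 for Rlbp1, -1.33 for Prune2 and 0.54 for Pttg1. The calls of Atp11a, Rlbp1 and Pttg1 were lost in 11, 14 and 8 of 23 alternatives.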

How the results depend on the processing

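The fitted ETS effects of the 4 genes in each host kept their sign in every alternative run, and each of 91 recomputed numbers of called genes over the whole table stayed within 1.5 times its value. The lean minus obese difference of Atp10b was -0.20 with limma on log2(TPM + 1) and 1.30 with log2(TPM + 0.05), against 2.73 on counts. A pseudocount of 1 exceeds the mean TPM of this gene in both groups before therapy. For Wfdc3 this difference, -0.74 on counts, was -0.81 to 0.03 under the settings that kept all tumors. Log2(TPM + 1) also shrank the lean change of Svop to 1.95, of Atp10b to 0.97, of Wfdc3 to 3.57 and of Clvs1 to 1.71. The highest group mean of Wfdc3 was 39.4 times the lowest in CPM and 82.5 times in TPM. TPM scaling moved the log2 fold changes of all genes by -0.35 at the median in lean hosts, -0.09 in obese hosts, -0.26 for their difference and -0.13 between hosts before therapy. The share of called genes that were higher was then 15.7% against 48.0% in lean tumors, 9.24% against 38.7% for the difference (30.2% with no genes excluded) and 29.0% against 50.96% between hosts before therapy. Tumors with the same number were correlated at -0.11 to 0.452 over 24 pairs, 11 of them over 0.1 (mean 0.126), beside 18 of 72 pairs with different numbers (mean -0.04). Since not every pair was over 0.1 and the labels tie no numbers, the numbers were not taken to pair the tumors, although a tumor's own number gave the highest correlation with another group in 19 of 48 cases. A replicate block gave 7754, 7151, 3087 and 4801 called genes for the lean, obese, difference and before-therapy comparisons, against 7099, 6517, 2660 and 4280. Counts under 50 before therapy limit the precision of Svop, Wfdc3 and the lean values of Atp10b.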
